A study of Mus musculus with 30 samples.

Results

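Cultures of 3T3-L1 given quizalofop-p-ethyl (QpE) at 50 µM were compared with control cultures, both under the label 12 days. The comparison takes 10 of the 30 libraries of the series, 5 with QpE and 5 controls, chosen by their treatment labels. 3T3-L1 is an established line of mouse fibroblasts that can be driven to become adipocytes, and QpE is a herbicide, an ester made to block the acetyl-CoA carboxylase of grasses. The series asked whether QpE promotes this conversion and sampled the same treatments at 6 h and 24 h. Both groups were kept in the same differentiation medium with fetal serum, the phosphodiesterase inhibitor 3-isobutyl-1-methylxanthine and insulin, so the controls are also differentiating cells and not resting preadipocytes. Dexamethasone, the usual glucocorticoid of adipogenic mixtures, is named in the protocol as a positive control and not as part of this medium. The medium changes that the protocol lists add up to less than 12 days, and the label is used as given. The labels number the cultures 1 to 5 in each group without saying how separate they were, so p-values measure the spread between these cultures, which may be technical.

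Fat cell formation is driven by PPARγ and C/EBPα, which switch on the genes of lipid storage, lipid release and adipokine secretion, while the cell gives up its fibroblast matrix of collagens, proteoglycans and elastic fibres. Mitochondria multiply in the same period. Preadipocyte factors such as Dlk1, and signals through Wnt and TGF-β, hold the conversion back.

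Expression is given as FPKM, fragment counts scaled for transcript length and library size, summed over the named transcripts of a gene. Differences are QpE minus control on the log2(FPKM + 1) scale with their standard error (SE), which understates changes of genes of low level, and group levels are mean ± SD over 5 libraries. A gene was called when limma's two-sided test gave a Benjamini-Hochberg adjusted p under 0.05 over all 11557 genes tested, and every adjusted p below is of that kind. FPKM summed to between 447491 and 500489 in the 5 QpE libraries and between 429602 and 450547 in the 5 controls. The main fit did not rescale these totals, so small shifts of a list are to be read beside them. Steps between low values put the depth of the 10 libraries at about 9500000 to 17500000 fragments, with QpE replicate 5 at 12200000.

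The cultures differed within groups as well as between them. On the first principal component (29.9% of the variance) QpE replicate 5 lay at -64.8, the other 4 QpE cultures between -26.1 and 3.97, and the 5 controls between 8.91 and 40.6. The second component (23.1%) set replicates 3 and 4 of both groups apart from replicates 1 and 2. The mean level of 22 adipocyte genes, on the log2(FPKM + 1) scale, was 6.75, 6.74, 4.76, 4.63 and 6.84 in control replicates 1 to 5 and 7.04, 7.19, 5.56, 5.23 and 6.78 with QpE. Replicates 3 and 4 therefore held the lowest adipocyte levels whether or not QpE was given. QpE replicate 5 correlated with the other QpE libraries at r = 0.899 to 0.931 across genes. A gene called with all 10 libraries and named below was also called without this culture unless it is said otherwise, and differences without it are given for several.

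**Figure D1:**
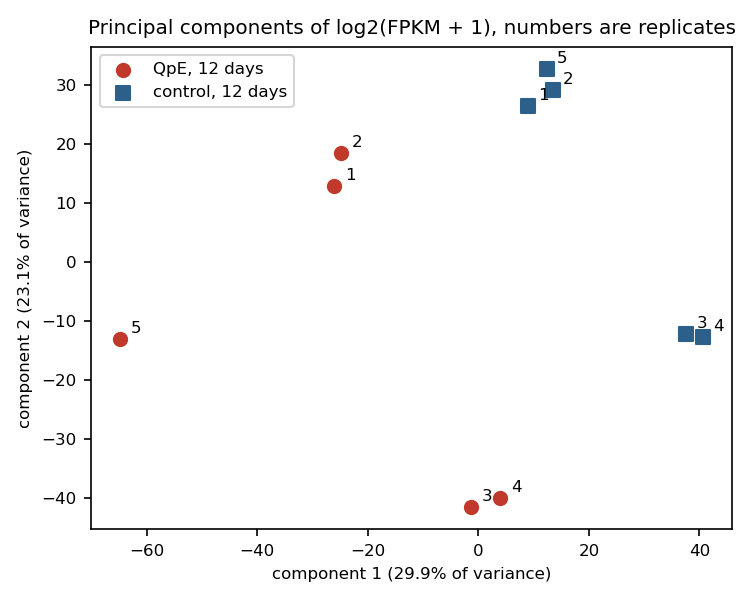
Each point is 1 library at 12 days, placed by the first (x axis) and second (y axis) principal component of log2(FPKM + 1) over 11557 genes, with circles for QpE, squares for controls and the replicate number beside each. QpE replicate 5 lies alone at -64.8 on the first component, and replicates 3 and 4 of both groups lie below replicates 1 and 2 of their group on the second.

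With QpE, 505 genes rose (4.37%) and 628 fell (5.43%). The median difference over all genes was 0.02, and 52.3% lay above 0. Without QpE replicate 5, 352 of 11438 genes rose (3.08%) and 576 fell (5.04%). Called in the same direction in both fits were 333 higher (2.88%) and 508 lower genes (4.40%). The 5 QpE libraries all lay above the 5 controls for 713 genes (6.17%) and all below for 851 (7.36%). With the replicate number as a block, 865 rose (7.48%) and 856 fell (7.41%). That the numbers pair the cultures was taken from these same values and not from the labels. The values show sets of cultures more clearly than pairs by number, which limits every result with the block or by numbered pair below. Counts of list members below are to be read beside the shares of the same fit. QpE replicate 5 was the most extreme QpE library in 292 of the 505 genes that rose and in 489 of the 628 that fell. The median difference of those that fell went from -0.88 to -0.75 without it. Scaling every library to the same FPKM total changed the balance to 296 higher and 881 lower, so that 25.1% and not 44.6% of the calls were higher. The median difference over all genes was then -0.056. Leaving out control replicate 1, 2, 3, 4 or 5 left 283, 195, 183, 146 and 181 higher genes and 293, 205, 219, 173 and 196 lower ones. Leaving out QpE replicate 3 left 276 and 379. In bulk RNA, fewer cells of a type and less RNA per cell cannot be told apart.

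**Figure D2:**
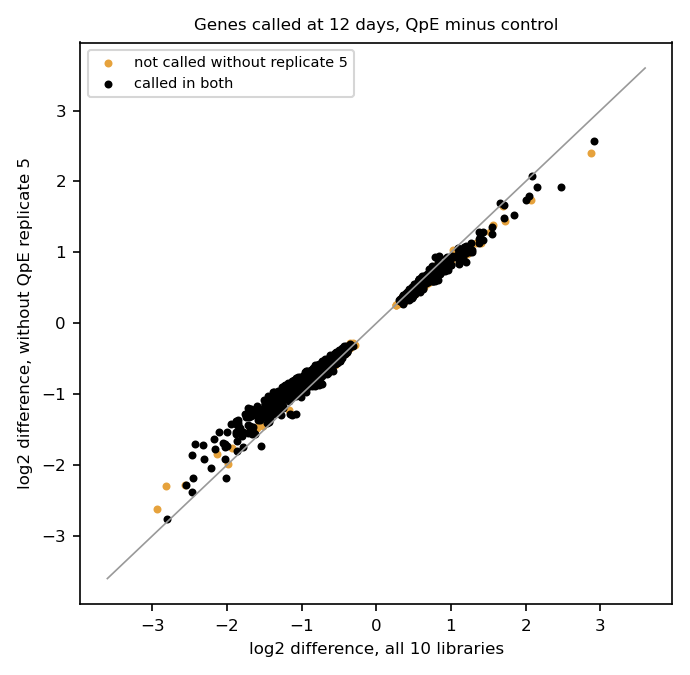
Each point is a gene called with all 10 libraries, with its log2 difference (QpE minus control) over all 10 libraries on the x axis and without QpE replicate 5 on the y axis; the grey line marks equal values. Black points are the genes called in both fits, 333 higher and 508 lower, and points below 0 tend to lie nearer to 0 without this culture, with a median of -0.75 against -0.88.

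Few genes were called at the earlier samplings. At 6 h 11652 genes were tested with limma and 0 were called (0%), while 321 had an unadjusted p below 0.05. At 24 h 1 was called among 11712 (0.00854%), while 949 had an unadjusted p below 0.05. That gene was Alkbh2, a DNA repair dioxygenase, which was lower at 24 h by -1.60 (adjusted p = 0.0140). Its level was low, at 3.09, 2.42, 1.79, 2.44 and 1.60 FPKM in the 24 h controls and 0, 0, 0.373, 0 and 0 with QpE. At 12 days Alkbh2 had a difference of 1.31 (adjusted p = 0.140), and it is named here after its value was seen. The 12 genes with the largest falls at 12 days, described next, had differences from -2.55 to -2.03. Their median was -0.36 at 24 h (range -0.62 to -0.08) and, for the 11 tested there, -0.05 at 6 h. The 12 largest rises had differences from 1.39 to 2.91 at 12 days, and the 10 of them tested at 24 h had a median of 0.26 (range -0.69 to 0.74). Whether the times differ was not tested.

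The genes with the largest changes were taken from those called with and without QpE replicate 5, with separate groups and a mean of at least 10 FPKM in the higher one. That the groups were separate in these genes follows from this choice and is no further result. The rise of Anxa8 was the largest among these genes. Anxa8 encodes annexin A8, a calcium-dependent membrane-binding protein, and lies on chromosome 14 (34085981 to 34100571, plus strand, GRCm38). Control replicates 1 to 5 held 35.3, 27.6, 32.8, 33.2 and 27.8 FPKM, and QpE replicates 224, 214, 185, 145 and 623. The lowest QpE culture was thus above the highest control, and replicate 5 stood far above the other 4. The difference was 2.91 ± 0.33 (adjusted p = 0.00761) and 2.57 without replicate 5 (adjusted p = 1.9e-04). Itih4, a heavy chain of the inter-alpha-trypsin inhibitor family, read 3.89, 3.54, 4.28, 2.93 and 3.05 in controls and 19.6, 15.4, 18.9, 11.9 and 115 with QpE. Its rise of 2.48 ± 0.51 became 1.93 without replicate 5, with adjusted p = 0.0208 and 6.7e-04. Zbtb16, the zinc finger protein PLZF, rose by 2.15 ± 0.43 from 1.58 ± 1.23 to 10.2 ± 5.36 FPKM, and by 1.93 without replicate 5.

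Other genes among the 12 largest rises had varied roles. Car5b, a mitochondrial carbonic anhydrase, went from 37.2 ± 15.2 to 110 ± 44.5 FPKM (1.55 ± 0.33, adjusted p = 0.0222). Gyg, glycogenin, the primer of glycogen synthesis, rose by 1.44 ± 0.28. Cers4, a ceramide synthase, rose by 1.40 ± 0.33, with adjusted p = 0.0507 under the replicate block. Dhrs3, which reduces retinal to retinol, rose by 1.39 ± 0.25. Agt, angiotensinogen, read 39.6, 32.7, 69.7, 65.4 and 39.2 FPKM in controls and 90.2, 102, 139, 103 and 268 with QpE, a rise of 1.43 ± 0.32, or 1.17 without replicate 5. Cib2, a calcium- and integrin-binding protein, rose by 2.05 ± 0.37, or 1.80 without replicate 5. All 5 of the control values of Cib2, from 11.9 to 35.0 FPKM, lay below the lowest QpE value of 65.7. Asxl1, a Polycomb-associated chromatin factor, had a difference of 2.09 (adjusted p = 0.0216), with 9.23 FPKM in control replicate 4 and 0.609 to 1.46 in the other controls. That value depends on how transcripts were named: with unnamed transcripts of its locus joined, its difference was 0.13 (adjusted p = 0.324), and 36.0% of its FPKM lay in such transcripts.

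**Figure D3:**
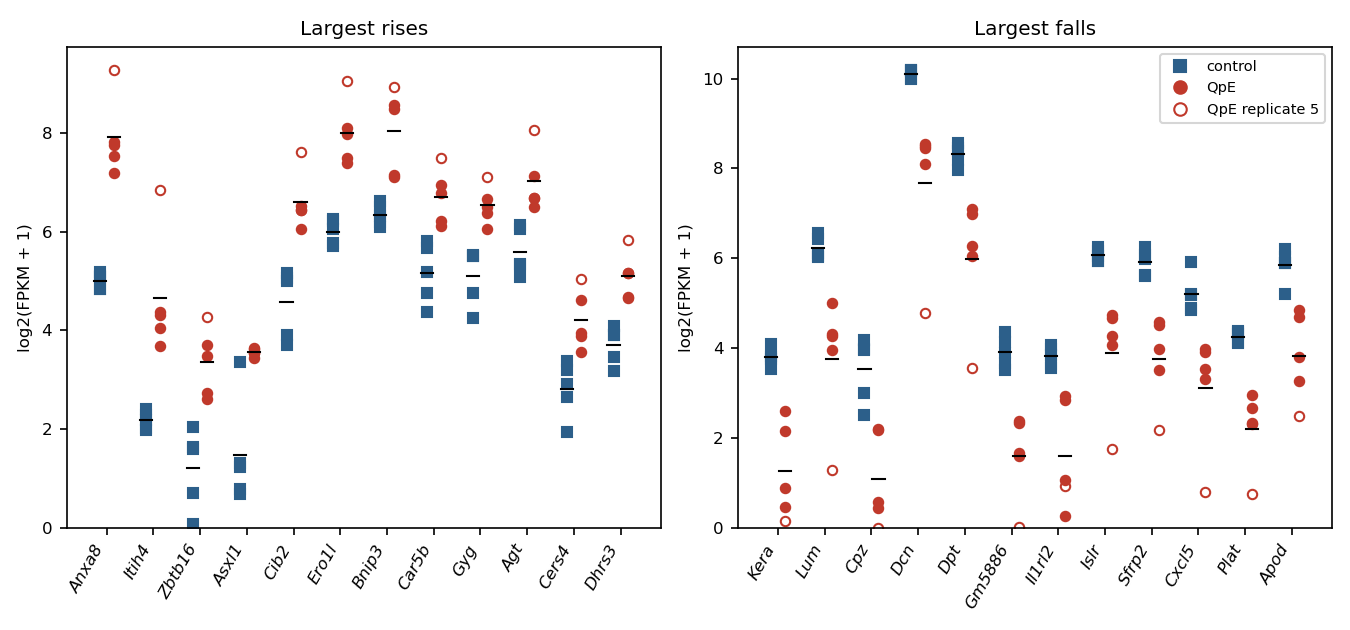
Level in each library, as log2(FPKM + 1) on the y axis, of the 12 genes with the largest rises (left) and the 12 with the largest falls (right) among genes called with and without QpE replicate 5 whose groups do not overlap. Blue squares are controls, red circles QpE, the open circle is QpE replicate 5 and black lines are means on the log2 scale; the open circle is the highest QpE point for 11 of the 12 rises and the lowest for 11 of the 12 falls.

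Of 10 tested small leucine-rich proteoglycans, which bind collagen fibrils and set their spacing, 6 fell and none rose, all 10 had values below 0, and the median was -1.71. All of these except Ogn were also called without replicate 5. Dcn, decorin, the founding member of the family, lies on chromosome 10 (97479609 to 97518143, plus strand, GRCm38). It read 1016, 1029, 1172, 1167 and 1145 FPKM in controls and 349, 373, 275, 362 and 26.4 with QpE. Every QpE culture was thus far below the controls, and replicate 5 was the lowest by far. The fall was -2.43 ± 0.65 (adjusted p = 0.0426) with all libraries and -1.71 without replicate 5 (adjusted p = 5.3e-04). Lum, lumican, and Kera, keratocan, lie beside Dcn on chromosome 10 and fell by 2.47 ± 0.58 and -2.55 ± 0.44. Lum went from 75.3 ± 13.4 to 16.8 ± 10.6 FPKM and Kera from 13.0 ± 1.98 to 1.96 ± 2.17. Ogn, osteoglycin, fell by 2.14 ± 0.53, with adjusted p = 0.0620 without replicate 5. Prelp, which fell by 2.01, was not called once unnamed transcripts were joined (-0.93, adjusted p = 0.0860).

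Collagens were lower as well. Of 18 tested collagen chains, 6 fell, each with and without replicate 5, and 1 rose. The median was -0.71. Col3a1, the chain of type III collagen, read 2541, 2441, 2918, 2970 and 2526 FPKM in controls and 1138, 1129, 835, 1048 and 179 with QpE. Col1a1, of type I collagen, read 936, 1053, 1087, 1100 and 1076 against 424, 462, 301, 378 and 87.1. In both genes all QpE cultures lay below all controls, and replicate 5 lay lower still. Their falls were -1.88 ± 0.47 (adjusted p = 0.0341) and -1.87 ± 0.40 (adjusted p = 0.0222), and -1.37 and -1.44 without replicate 5. Col11a1 (-1.58), Col12a1 (-1.45), Col5a2 (-1.43) and Col23a1 (-1.72) fell too, the last with adjusted p = 0.0533 under the replicate block. Col5a3, a type V chain, rose by 0.52 ± 0.14, and this call was lost without replicate 5 (adjusted p = 0.0842).

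Of 22 genes that process or crosslink collagen 8 fell and none rose, all 8 also without replicate 5. Lox, lysyl oxidase, which crosslinks collagen and elastin, fell from 158 ± 7.26 to 51.7 ± 21.5 FPKM (-1.72 ± 0.29, adjusted p = 0.0152, and -1.43 without replicate 5). Its relative Loxl1 fell by 1.20 ± 0.17. Pcolce, which enhances the cleavage of procollagen, fell by 1.49 ± 0.34, and P4ha3, a prolyl hydroxylase subunit, by -1.72 ± 0.36. Among 13 elastic fibre genes 5 fell, and 3 of these without replicate 5. Eln, elastin itself, went from 6.25 ± 2.18 to 1.44 ± 1.18 FPKM, and Fbln1, fibulin 1, from 102 ± 6.55 to 29.2 ± 14.4. Of 22 matricellular and adhesive genes 10 fell, 9 of them also without replicate 5. These included Dpt, dermatopontin (-2.32 ± 0.58), Postn, periostin (-1.95 ± 0.54, adjusted p = 0.0559 with the replicate block), Thbs2, a thrombospondin (-1.86 ± 0.44), and Has2, a hyaluronan synthase (-1.11 ± 0.22). Fn1, fibronectin, was not called, at 193 ± 63.8 and 151 ± 85.0 FPKM (difference -0.47, 95% interval -1.29 to 0.35).

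Of 17 matrix proteases and inhibitors 6 fell and none rose, 5 of them also without replicate 5, and the median was -1.13. Timp1 and Timp3, inhibitors of metalloproteinases, fell by 1.68 ± 0.45 and -1.60 ± 0.30, and the aggrecanases Adamts5 and Adamts4 by -1.37 ± 0.29 and -1.13 ± 0.25. Mmp3, stromelysin, read 296, 305, 457, 475 and 303 FPKM in controls and 63.0, 59.8, 76.2, 104 and 0.846 with QpE. No control overlapped a QpE culture, and replicate 5 was at a small fraction of the others. The difference was -3.33 ± 0.96 (adjusted p = 0.0545) with all libraries, which is not called, and -2.26 (adjusted p = 0.00101) without replicate 5, which is. With the replicate block its adjusted p was 0.0447. Limma called 0 of 14 integrins and laminins, with 1 higher and 3 lower at an unadjusted p under 0.05, and with the block 2 were called higher and 3 lower.

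Of 22 chemokine and inflammation genes 5 fell, with a median of -1.07, and 4 of the 5 were called without replicate 5. With the replicate block, 11 were called lower. Cxcl5, a neutrophil chemokine, read 28.7, 27.98, 59.2, 35.5 and 35.6 FPKM in controls and 13.95, 8.97, 10.6, 14.7 and 0.723 with QpE. The groups were separate, with replicate 5 lowest, and the fall was -2.11 ± 0.55 (adjusted p = 0.0401), or -1.53 without replicate 5. Vcam1, an adhesion molecule, fell by 1.46 ± 0.36. Ccl2, the monocyte chemokine, had a difference of -2.01 (adjusted p = 0.0759, and 0.0364 with the replicate block). Of 24 interferon-stimulated genes 1 fell, Psmb8, a share near the 5.43% of all genes that fell, and of 10 complement genes 2 fell, C1ra and Serping1. Apod, a lipocalin, and Plat, tissue plasminogen activator, were among the 12 largest falls, at -2.03 ± 0.42 and -2.05 ± 0.35. Il1rl2, the interleukin-36 receptor, was another, at -2.22 ± 0.49, or -1.21 with unnamed transcripts joined.

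Regulators that hold fat cell formation back were lower with QpE: 7 of 22 fell, 6 of them also without replicate 5, and none rose. Dlk1, the preadipocyte factor Pref-1, read 606, 628, 655, 665 and 814 FPKM in controls and 293, 396, 233, 125 and 119 with QpE, a fall of -1.67 ± 0.32 (adjusted p = 0.0183), or -1.47 without replicate 5. The highest QpE culture was below the lowest control, and the lowest of all were QpE replicates 4 and 5. Twist1, a mesenchymal transcription factor, read 48.8, 48.6, 53.4, 46.2 and 68.5 against 21.9, 23.1, 18.3, 19.6 and 12.7, a fall of -1.44 ± 0.17 (adjusted p = 0.00761). Replicate 5 was the lowest but closer to the others than in Dcn or Mmp3. Gata2 (-1.17), Runx2 (-1.14) and Sox9 (-0.94), transcription factors of other lineages, fell as well. With the replicate block Ddit3, the stress factor CHOP, which is also on this list, was called higher (0.99, adjusted p = 0.0279).

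Of 18 Wnt pathway genes 6 fell and none rose, all 6 also without replicate 5. They included the receptors Fzd1 (-1.54 ± 0.24), Fzd2 (-1.27 ± 0.14) and Fzd4 (-0.82 ± 0.19), and also Sfrp2 (-2.16 ± 0.41) and Dkk3 (-1.32 ± 0.29), secreted proteins known to modulate or antagonise Wnt signals. Fzd2 was even across cultures, at 21.3, 21.1, 22.4, 21.7 and 25.2 FPKM in controls and 11, 10.5, 8.45, 7.75 and 6.29 with QpE. Of 26 TGF-β and BMP genes 5 fell: the ligands Tgfb2 and Tgfb3, the receptor Tgfbr2, and Smad3 and Smad6, which relay and inhibit the signal. The same 5 were called without replicate 5. Of the insulin-like growth factor and insulin signalling list, 5 of 21 fell and 1 rose, Trib3, a pseudokinase described below. Igf1 went from 90.8 ± 6.26 to 35.2 ± 12.7 FPKM (-1.44 ± 0.27, adjusted p = 0.0179) and Igfbp3, its carrier, from 27.4 ± 1.58 to 10.1 ± 3.13 (-1.42 ± 0.21, adjusted p = 0.0103). Irs1, the insulin receptor substrate, fell by 0.72 ± 0.19, which was not called without replicate 5 (adjusted p = 0.0660). Of 20 genes of the contractile machinery and of YAP or SRF control 5 fell, Tpm1, Filip1l, Flna, Crim1 and Actb, and all but Flna and Actb also without replicate 5. Flna was not called with the block either (adjusted p = 0.0590).

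The fat cell program itself had few calls. Of 22 adipocyte identity genes limma called 0 higher, with 2 higher at an unadjusted p under 0.05, and 1 lower. The median was 0.53, or 0.33 without replicate 5, against 0.02 for all genes, and 17 values were above 0. The gene that fell was Lipa, lysosomal acid lipase, which read 80.1, 84.4, 71.6, 75.9 and 77.5 FPKM in controls and 54.6, 52.7, 45.1, 48.0 and 44.3 with QpE (-0.66 ± 0.09, adjusted p = 0.00874). Its groups were separate and tight. With the replicate number as a block, which sets each QpE culture against the control of its number, 8 members were called higher: Cfd, Retn, Cidec, Slc2a4, Lipe, Acsl1, Dgat2 and Mrap, of which Cidec, Acsl1 and Mrap are named here after their values were seen. Cfd, the adipokine adipsin, read 907, 740, 79.1, 61.0 and 1119 FPKM in controls and 1867, 2144, 248, 180 and 1508 with QpE. It was higher with QpE in 5 of 5 numbered pairs, while the groups overlapped, so the difference of 1.24 was called with the block (adjusted p = 0.0259) and not without (adjusted p = 0.503). Adipoq, adiponectin, read 945, 821, 209, 159 and 878 against 1154, 1010, 390, 346 and 587. It was higher in pairs 1 to 4 and lower in pair 5, and was not called either way (0.40, 95% interval -0.90 to 1.71; adjusted p = 0.711, and 0.309 with the block).

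Pparg, the master regulator of the program, depended on the naming of its transcripts. Its named transcripts summed to 97.2 ± 30.9 FPKM in controls and 123 ± 53.9 with QpE, a difference of 0.23 (95% interval -0.67 to 1.13; adjusted p = 0.762). With the unnamed transcripts of its locus joined, which held 15.6% of its FPKM, the levels were 100 ± 31.7 and 161 ± 16.3 and the difference 0.73 (adjusted p = 0.0408). Cebpa differed by 0.37 (adjusted p = 0.568) and Fabp4, a fatty acid carrier, by 1.15 (adjusted p = 0.181). Among 25 transcription factors and cofactors that promote fat cell formation, 2 rose, beside 4.37% of all genes. They were Ncoa1, a nuclear receptor coactivator (0.78 ± 0.15), and Klf9 (0.79 ± 0.21), both called with and without replicate 5.

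**Figure D4:**
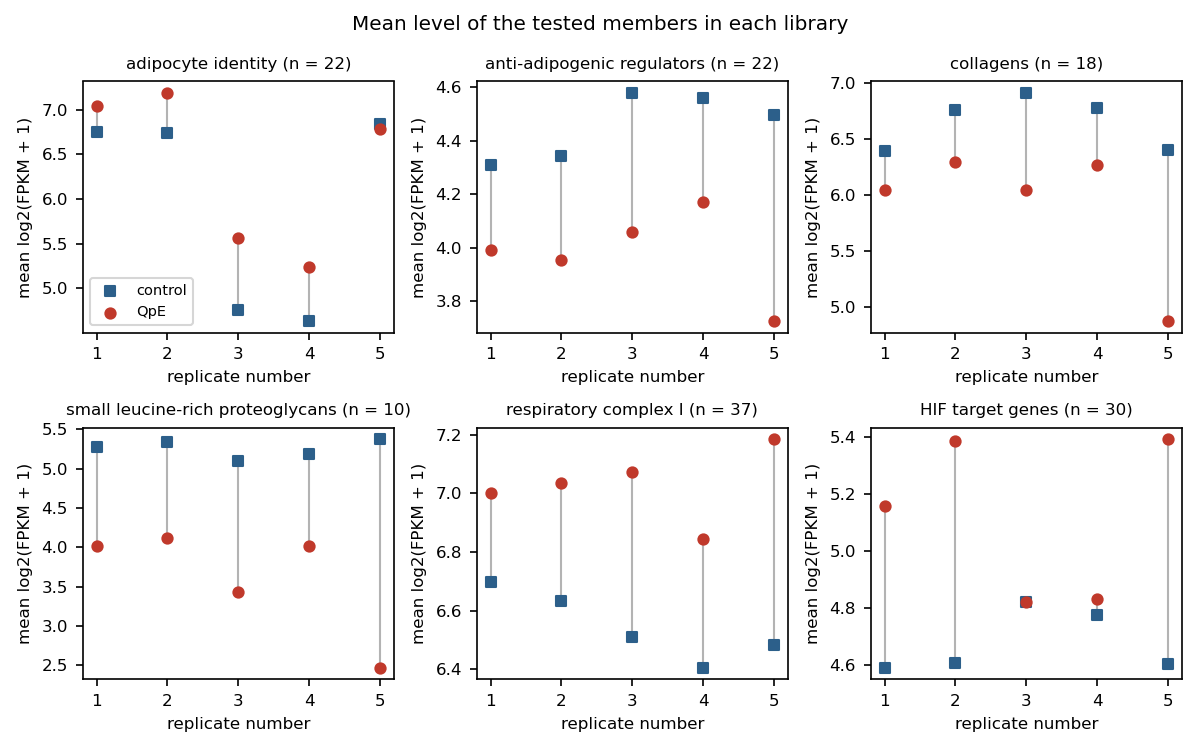
Mean log2(FPKM + 1) of the tested members of 6 gene lists (y axis) in each library, by replicate number (x axis), with blue squares for controls, red circles for QpE and a grey line joining the libraries of 1 number. Adipocyte levels of replicates 3 and 4 are below 5.6 in both groups, and the collagen level of QpE replicate 5 is 4.87 where the other QpE cultures are at 6.05 to 6.29.

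Lipid handling showed a handful of calls. Of 21 fatty acid synthesis genes limma called 0, with 0 higher and 1 lower at an unadjusted p under 0.05, and with the block 4 were called higher. Fasn, fatty acid synthase, read 275, 248, 63.0, 51.2 and 248 FPKM in controls and 481, 504, 66.0, 63.7 and 484 with QpE. Its QpE values exceeded the control of the same number in all 5 pairs, by 0.07 and 0.31 in replicates 3 and 4 and by 0.81 to 1.02 in the others (adjusted p = 0.659, and 0.0507 with the block). Acaca and Acacb, the animal forms of the enzyme that QpE blocks in grasses, differed by -0.22 (95% interval -1.61 to 1.17) and 0.26 (95% interval -0.23 to 0.74), with 64.5% and 56.9% of their FPKM in unnamed transcripts. Joined, the differences were 0.61 and 0.47 (adjusted p = 0.323 and 0.218).

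Of 16 triglyceride assembly genes 2 rose, Dgat1, which adds the last acyl chain (0.54 ± 0.13, adjusted p = 0.0308), and Agpat5 (0.50 ± 0.13). Neither was called without replicate 5 (adjusted p = 0.0535 and 0.0523), although Dgat1 in replicate 5 was 210 FPKM, close to the 181 to 209 of the others. Of 15 lipolysis genes 2 rose and 1 fell, Lipa. Pnpla2, adipose triglyceride lipase, read 400, 271, 133, 102 and 382 FPKM in controls and 784, 714, 603, 345 and 1099 with QpE. It was higher in all 5 numbered pairs, while the lowest QpE value was below the 2 highest controls (1.56 ± 0.43, adjusted p = 0.0487, and 0.0984 without replicate 5). Abhd6, a monoacylglycerol lipase, rose by 1.09 ± 0.19, and by 1.06 without replicate 5. Fabp5, another fatty acid carrier, rose from 864 ± 252 to 1683 ± 310 FPKM (1.00 ± 0.24, adjusted p = 0.0290, and 0.0516 without replicate 5).

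Part of the nuclear genes of the mitochondrion rose. All 37 tested nuclear genes of respiratory complex I had values above 0, 17 of them rose, and the median was 0.47. All 40 of complexes II to V were above 0, 14 rose, and the median was 0.48. Without replicate 5, 12 and 10 were called, 12 and 9 of them among the same genes. With the replicate block 22 and 26 were called, and with quantile normalization 6 and 4. Ndufb9, an accessory subunit of complex I, read 274, 257, 237, 228 and 227 FPKM in controls and 395, 383, 462, 424 and 526 with QpE (0.83 ± 0.11, adjusted p = 0.00883). Ndufv2, of the NADH-binding module, read 100, 104, 92.3, 75.8 and 90.2 against 146, 170, 163, 168 and 168 (0.82 ± 0.10, adjusted p = 0.00874). Replicates 3 and 4, whose adipocyte levels were lowest, differed between treatments at least as much as replicates 1 and 2 in both genes, and the groups did not overlap. Cycs, cytochrome c, rose by 0.92 ± 0.18.

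Of 77 mitochondrial ribosomal proteins 20 rose and none fell, 17 of them without replicate 5, with a median of 0.32. Of 31 genes of pyruvate entry and the TCA cycle 9 rose, with a median of 0.58 and 5 also called without replicate 5. They included Pdhb, a subunit of pyruvate dehydrogenase (0.95 ± 0.14), and Idh3a and Idh3b of isocitrate dehydrogenase (1.02 ± 0.20 and 0.62 ± 0.12). Of 24 genes of branched-chain amino acid breakdown 3 rose, of which 1, Hsd17b10, was called without replicate 5, and 14 were called with the block. Hspd1 and Hspe1, the chaperonin of the mitochondrial matrix and its partner, rose by 0.84 ± 0.10 and 0.76 ± 0.17. Fatty acid oxidation genes had few calls without the block. Of 25 genes 23 had values above 0, while 2 rose (Decr1 and Etfa) and 2 fell, beside 4.37% and 5.43% of all genes. With the block 12 were called higher, beside 7.48% of all genes. The 2 that fell were Cpt1a, a carnitine palmitoyltransferase that admits fatty acids to the mitochondrion, and its relative Cpt1c. Cpt1a read 25.9, 21.4, 26.5, 29.1 and 28.3 FPKM in controls and 15.4, 11.9, 14.5, 13.7 and 5.48 with QpE (-1.11 ± 0.24, adjusted p = 0.0222, and -0.87 without replicate 5). Of 7 tested thermogenic genes Ppargc1b, a coactivator of mitochondrial biogenesis, rose by 0.94 ± 0.17, while Ppargc1a differed by 0.17 (95% interval -0.41 to 0.75). Ucp1, the brown fat uncoupler, was listed at 0 in all QpE libraries and reached 0.0444 FPKM in 1 control. The mitochondrially encoded genes varied without order between libraries and are not compared.

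**Figure D5:**
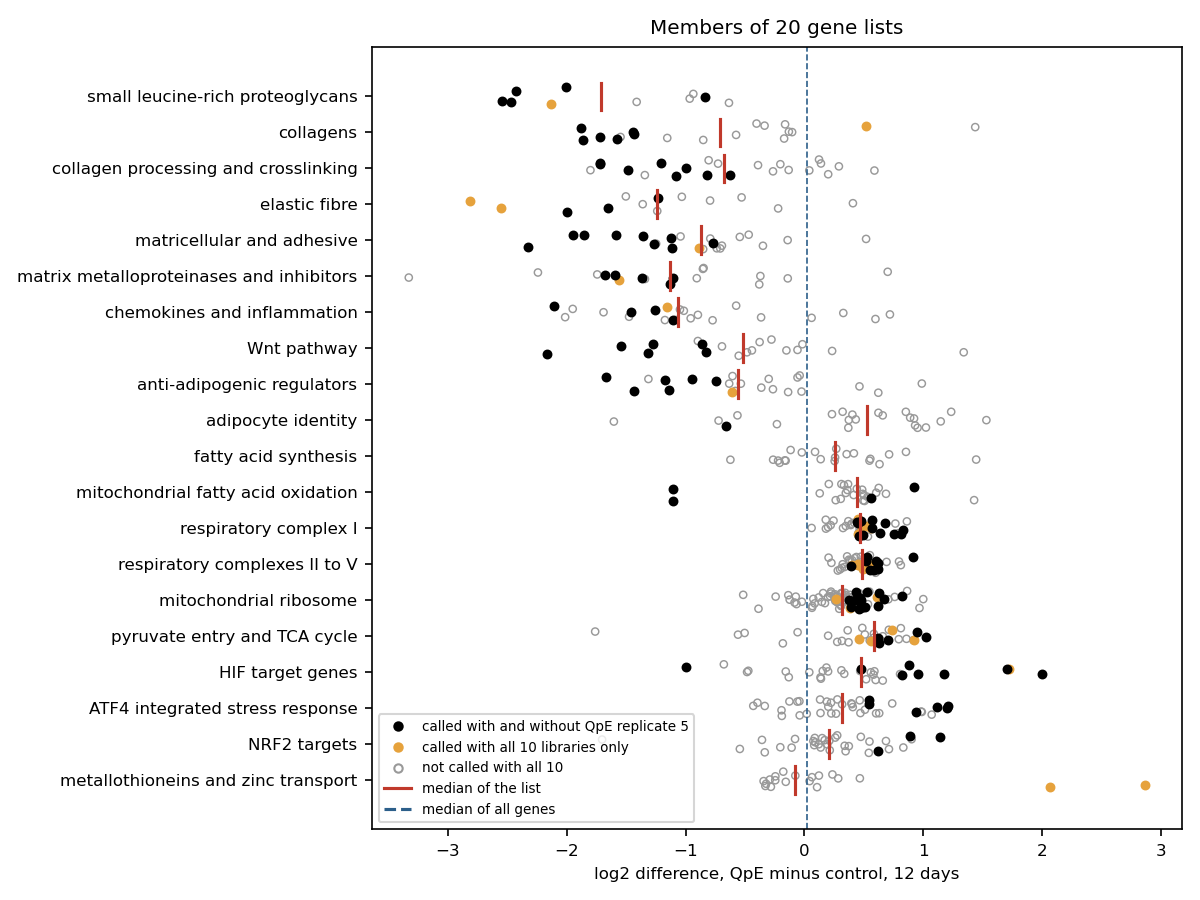
Log2 difference at 12 days (x axis, QpE minus control) of each tested member of 20 gene lists (rows), with black points for genes called with and without QpE replicate 5, orange for those called with all 10 libraries only and open points for the rest. Red bars are list medians, from -1.71 for small leucine-rich proteoglycans to 0.58 for pyruvate entry and the TCA cycle, and the dashed line is the median of all genes at 0.02.

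Genes of the response to low oxygen were raised in part. HIF, the hypoxia-inducible factor, binds a short core motif and turns on genes of glycolysis, mitophagy and oxygen sensing. Of 30 tested targets 8 rose and 1 fell, Plod2, a collagen lysyl hydroxylase, and 7 of the 8 were called without replicate 5. The upstream windows of the 3 members with the largest differences are shown because the HIF core is known to act in such windows. They are the 250 bases before the RefSeq start in build GRCm38.p6, 5′ to 3′ on the gene's strand, with matches to ACGTG or GCGTG on either strand in capitals. They lie at chr14:45318573-45318822, chr12:54203875-54204124 and chr7:138909507-138909756, all on the minus strand.
Ero1l: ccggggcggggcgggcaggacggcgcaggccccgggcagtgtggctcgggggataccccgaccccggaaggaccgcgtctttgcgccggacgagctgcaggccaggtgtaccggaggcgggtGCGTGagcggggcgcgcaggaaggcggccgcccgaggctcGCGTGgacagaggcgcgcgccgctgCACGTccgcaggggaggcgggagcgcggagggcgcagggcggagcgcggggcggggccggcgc
Egln3: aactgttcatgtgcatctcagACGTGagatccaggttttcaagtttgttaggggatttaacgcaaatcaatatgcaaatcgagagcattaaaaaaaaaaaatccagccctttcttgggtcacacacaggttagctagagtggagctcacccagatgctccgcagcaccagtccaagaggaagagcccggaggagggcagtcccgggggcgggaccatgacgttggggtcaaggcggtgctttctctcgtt
Bnip3: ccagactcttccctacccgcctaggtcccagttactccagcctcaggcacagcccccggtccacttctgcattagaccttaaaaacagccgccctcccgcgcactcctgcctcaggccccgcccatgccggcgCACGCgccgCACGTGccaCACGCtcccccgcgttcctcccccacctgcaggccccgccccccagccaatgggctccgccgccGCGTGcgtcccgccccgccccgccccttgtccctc
Counting both motifs and both strands, and overlapping matches separately, the windows hold 3, 1 and 5 matches. Of 32851 such windows from RefSeq, 38.6% hold at least 1 and 1.01% at least 5. A window was found for 25 of the 30 targets, and 24 of these hold a match, taking the best window of a gene. This is a looser count than the share of single windows. For 7 of the 8 targets that rose a window was found, and all 7 hold a match. Most targets that did not rise hold one too, so a match did not set the genes that rose apart. A match is a run of letters and does not show binding.

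Ero1l, an oxidase of the endoplasmic reticulum (Ero1a in RefSeq), read 65.4, 73.3, 75.7, 53.4 and 51.2 FPKM in controls and 250, 272, 179, 168 and 532 with QpE (2.00 ± 0.29, adjusted p = 0.00969, and 1.74 without replicate 5). Bnip3, a mitophagy receptor, read 97.5, 78.5, 72.4, 67.3 and 89.5 against 360, 380, 141, 137 and 490 (1.71 ± 0.36, adjusted p = 0.0214, and 1.48 without replicate 5). Egln3, the prolyl hydroxylase that marks HIF for destruction, read 8.99, 7.65, 5.45, 4.62 and 6.96 against 34.6, 40.8, 9.79, 10.1 and 53.8 (1.72 ± 0.46, adjusted p = 0.0430, and 0.0793 without replicate 5). In Bnip3 and Egln3, QpE replicates 3 and 4 were the lowest of the QpE cultures. The same held for the list: its mean level was 4.59, 4.61, 4.82, 4.78 and 4.61 in controls and 5.16, 5.39, 4.82, 4.83 and 5.39 with QpE, so that replicates 3 and 4 barely differed between the treatments. Mxi1 (1.18 ± 0.21), Hk2, hexokinase 2 (0.96 ± 0.16), Pgk1, phosphoglycerate kinase (0.88 ± 0.20, adjusted p = 0.0579 with the replicate block), Higd1a (0.82 ± 0.13) and Bnip3l (0.48 ± 0.10) made up the other rises. Vegfa, the vascular growth factor, differed by 0.31 (adjusted p = 0.155), and Car9, a hallmark target, stayed at or under 0.292 FPKM in every library. Of 22 glycolysis genes 4 rose, Hk2, Pgk1, Tpi1 and Slc16a1, and Eno3 fell. Tpi1 and Eno3 were called neither without replicate 5 nor with the block.

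Stress pathways showed selected members. Of 37 targets of ATF4, the factor of the integrated stress response, 6 rose, all also without replicate 5, and 15 were called with the block. Trib3 read 54.0, 57.3, 54.0, 48.1 and 62.1 FPKM in controls and 96.7, 97.6, 114, 90.5 and 255 with QpE (1.11 ± 0.26, adjusted p = 0.0271, and 0.84 without replicate 5). Atf3 went from 6.74 ± 1.08 to 13.99 ± 2.79 FPKM (0.94 ± 0.16), and Nupr1 (1.20), Slc7a5 (1.21), Gars (0.54) and Cars (0.54) rose as well. Of 24 endoplasmic reticulum folding genes 4 rose, Ero1l among them with Dnajb9, Sel1l (adjusted p = 0.0530 with the block) and Xbp1, while Hspa5, the main chaperone there, differed by 0.42 (adjusted p = 0.0689). With the block its adjusted p was 0.0304, and 0.0534 once replicate 5 of both groups was left out. Of 33 targets of NRF2, the antioxidant factor, 3 rose: the carbonyl reductases Cbr1 (1.14 ± 0.24) and Cbr3 (0.62 ± 0.12) and Taldo1 (0.89 ± 0.21). With the block 9 were called. Hmox1, heme oxygenase, was not called at 323 ± 229 and 436 ± 249 FPKM (0.54, 95% interval -0.60 to 1.68), and Nqo1 differed by -0.11. With the block the adjusted p of Hmox1 was 0.0304, and 0.0583 once replicate 5 of both groups was left out. Of 35 proteasome genes 7 rose, 4 of them also without replicate 5, and 34 were above 0.

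The metallothioneins Mt1 and Mt2, which bind zinc and copper, were higher with QpE. Mt2 read 8.67, 8.28, 61.7, 57.0 and 10.95 FPKM in controls and 107, 65.2, 157, 126 and 564 with QpE (2.87 ± 0.72, adjusted p = 0.0354). Mt1 read 52.1, 47.0, 193, 168 and 56.1 against 206, 363, 301, 306 and 884 (2.07 ± 0.50, adjusted p = 0.0313). The groups did not overlap in either gene, and control replicates 3 and 4 were the highest controls in both. Without replicate 5 the adjusted p-values were 0.0578 and 0.0502. Mt1 and Mt2 were the 2 calls among 19 metallothionein and zinc transport genes. The median of this list was -0.08, with 9 members above 0 and 10 below. Mt1 and Mt2 are also glucocorticoid targets, as are Zbtb16 and Klf9, and these were the 4 of 17 on that list that rose, while Sgk1 fell. Fkbp5, a sensitive member, read 8.68, 6.48, 8.44, 10.99 and 7.28 FPKM in controls and 14.4, 22.1, 13.6, 14.4 and 161 with QpE. The groups were separate, but with replicate 5 the difference was 1.52 (adjusted p = 0.137) and without it 0.86 (adjusted p = 0.0222).

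Ahr, the aryl hydrocarbon receptor, fell from 3.13 ± 0.46 to 1.17 ± 0.55 FPKM (-0.96 ± 0.18), and it was the 1 call in 10 genes of its axis. Its targets Cyp1b1 (-0.96, adjusted p = 0.236) and Cyp1a1 (at most 0.0585 FPKM in any library) were not called or not tested. Of 28 xenobiotic and ester metabolism genes 2 rose and 3 fell, beside 4.37% and 5.43% of all genes. Por, the electron donor of cytochromes P450, and Mgst3 rose. Gstt1 and Aldh3b1 were among the 3 that fell, none of which was called without replicate 5. With the block Gstt1 was not called (adjusted p = 0.0734). Limma called 0 of 60 cytosolic ribosomal proteins, with 2 at an unadjusted p under 0.05, and 54 of the 60 lay above 0. It called 0 of 23 apoptosis and p53 genes, with 2 higher and 4 lower at an unadjusted p under 0.05. Of 30 cell cycle genes 1 fell, Ccnd1, cyclin D1, beside 5.43% of all genes.

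Markers of other cell types were checked in every library. The macrophage markers Ptprc and Adgre1 were at most 0.00991 FPKM, Myod1 and Myog of muscle were listed at 0, and the endothelial marker Pecam1 was at most 0.573. Of 10 macrophage markers the summed level was 4.14 to 6.96 FPKM with QpE and 3.28 to 6.82 in controls, nearly all of it Cd68 and Cd14. Cd68 was at 2.02 to 5.35 FPKM with QpE and 1.02 to 3.63 in controls, and Cd14 at 0 to 1.90 and 1.86 to 2.74. Limma called 0 of the 2 tested macrophage markers, and 1 was called higher with the block. Of 9 muscle markers the summed level was 9.28 to 18.6 FPKM with QpE and 5.14 to 10.5 in controls. Des, desmin, made up nearly all of it and rose by 0.91 ± 0.22 (adjusted p = 0.0295, and 0.0501 without replicate 5). Fibroblast markers were lower with QpE: their sum over 16 genes was 5424 to 6218 FPKM in controls, 2044 to 3111 in QpE replicates 1 to 4 and 605 in replicate 5. Of the 13 tested, 6 fell, among them Pdgfra (-1.40 ± 0.35) and S100a4 (-1.37 ± 0.37), and none rose. Of these 13, 12 had values below 0 and 1 above. The exception was Ly6a, with a difference of 0.15 and means of 26.6 FPKM with QpE and 24.4 in controls. The fibroblast list includes Dlk1, Col1a1 and Col3a1 described above. Col3a1 and Col1a1 averaged 2679 and 1050 FPKM in controls, a large part of the sum. That the fibroblast sum was lower in the same cultures as the matrix genes is therefore no separate result. Its part in the results for the matrix genes was not tested.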

How the data were processed

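The 30 libraries of the series hold total RNA, per the labels, and 10 of them, 5 QpE and 5 control cultures at 12 days, enter the comparison. Per the submitters' processing notes, the tools were HISAT, HISAT2 and StringTie and the build GRCm38; their versions and settings are not stated in what was used here. The authors deposited FPKM per transcript, with 150146 transcripts. In some deposited columns a few FPKM values lay just below 0, and these were set to 0. FPKM of the 133887 transcripts with a gene name was summed over 53350 names, and the 16259 without a name were left out. An alternative joined 10567 of these to the named gene of their locus.

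Genes with at least 1 FPKM in at least 5 of the 10 libraries were tested as log2(FPKM + 1) with limma 3.58.1 in R 4.3.3 (two-sided, empirical Bayes, Benjamini-Hochberg, threshold 0.05), after testing on simulated data. Python 3.11.15, pandas 2.3.3, numpy 2.4.6 and matplotlib 3.10.9 made the rest. FPKM holds no counts, so count models were not used, and fragment numbers were inferred from the spacing of low FPKM values in single-exon transcripts.

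Same-numbered QpE and control cultures deviated together from their group means (r = 0.168, 0.169, 0.329, 0.336 and 0.171 across genes), so the numbers were taken to pair the cultures. This comes from the data and not from the labels. Replicates 1, 2 and 5 also correlated with one another across groups, as did 3 and 4, and QpE replicate 1 correlated more with control replicate 2 (0.283) than with its own number. QpE replicate 2 correlated more with control replicate 5 (0.211) than with its own number (0.169). QpE replicate 3 correlated nearly as much with control replicate 4 (0.317) as with its own number (0.329). The values thus show 2 sets of cultures more clearly than pairs by number. A fit with the number as a block was run beside the main one.

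The text names the 12 largest rises and falls among genes called with and without QpE replicate 5 whose groups do not overlap and whose higher group averages 10 FPKM, up to 6 called members of each list, a set of fixed genes, and called members that go against their list. The comparison, the lists and these genes were chosen with earlier results of these data known. Alternatives were leaving out each library, other scalings, filters and a pseudocount of 0.1, array weights, the most abundant transcript of a gene, joined transcripts, a fit of all 30 libraries, and the block.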

Additional observations from a re-analysis of the deposited data

Results flagged for a closer look

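The 5 QpE and the 5 control libraries were examined for 72 genes, those with the largest changes and those always named, and for the mean levels of 12 lists. In 17 of these 168 groups 1 library lay further from its nearest neighbour than 0.71 of the range of the group, where chance gives about 1 in 20. QpE replicate 5 was that library in 12 of the 17. This culture was known to stand apart, and many of the genes were chosen for large changes, so the tally is a description and no independent evidence. Its mean collagen level was 4.87 on the log2(FPKM + 1) scale, where the next QpE culture was at 6.05. It held 623 FPKM of Anxa8 against 224 in the next QpE culture, and 114.5 FPKM of Itih4 against 19.6. It held 194 FPKM of Cib2 against 91.0, 532 of Ero1l against 272 and 268 of Agt against 139. Its Dcn was 26.4 FPKM, where the next lowest QpE culture was at 275. Mt1 was 884 FPKM in it against 363 in the next QpE culture, Mt2 was 564 against 157, and Trib3 was 255 against 114. Fkbp5 was 161 FPKM against 22.1, and Pdk4, a kinase that inhibits pyruvate dehydrogenase, was 40.4 against 16.4. The other 5 were controls. Asxl1 was 9.23 FPKM in control replicate 4 against 1.46 in the next, and Cxcl5 was 59.2 FPKM in control replicate 3 against 35.6. Lpl, lipoprotein lipase, was 882 FPKM in control replicate 4 against 136, and most of its FPKM lay in unnamed transcripts. Dlk1 was 814 FPKM in control replicate 5 against 665, and Col1a1 was 936 in control replicate 1, where the next lowest control was at 1053.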

How the results depend on the processing

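The 505 higher genes became 241 with no filter, 296 with FPKM rescaled to a common total, 306 with the most abundant transcript, 809 with joined transcripts, 1331 in a fit of all 30 libraries and 865 with the replicate block, and 146 to 459 when 1 library was left out. The 628 lower genes became 351, 338, 1039 and 1413 with no filter, the most abundant transcript, joined transcripts and all 30 libraries, and 173 to 626 when 1 was left out. The lowest counts, 146 and 173, came without control replicate 4. Without QpE replicate 5 the 352 higher genes became 185 with no filter, 185 with a common total, 184 with the most abundant transcript, 570 joined and 975 with all 30, and 133 to 259 with 1 more library left out. The 576 lower genes became 324 with the most abundant transcript, 913 joined and 1081 with all 30, and 347 to 507 with 1 more left out.

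Among lists, adipocyte genes called higher went from 0 to 1 with array weights, 1 joined, 2 with all 30, 8 with the replicate block and 7 with the block without replicate 5 of both groups, and 0 to 1 when 1 library was left out. Fatty acid synthesis went from 0 to 4 with the replicate block and 2 with the block without replicate 5. Fatty acid oxidation went from 2 to 1 with no filter, 1 with a common total, 1 with quantile normalization, 4 joined, 11 with all 30, 12 with the block and 11 with the block without replicate 5, and 0 to 3 with 1 left out. Complex I went from 17 to 10 with no filter, 6 with quantile normalization, 9 with the most abundant transcript and 26 with all 30, and 5 to 16 with 1 left out. Complexes II to V went from 14 to 7 with no filter, 9 with a common total, 4 with quantile normalization, 23 joined, 32 with all 30 and 26 with the block, and 6 to 17 with 1 left out. HIF targets went from 8 to 13 with array weights and 14 with all 30, and 4 to 10 with 1 left out. Metallothioneins went from 2 to 0 with no filter, 1 with the most abundant transcript, 4 with all 30 and 1 with the block without replicate 5, and 0 to 2 with 1 left out. NRF2 targets went from 3 to 8 with all 30, 9 with the block and 6 with the block without replicate 5, and 1 to 3 with 1 left out. The cause of these shifts was not tested.

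On the lower side, anti-adipogenic regulators went from 7 to 4 with no filter and 3 with the most abundant transcript, and 4 to 7 with 1 left out. Collagens went from 6 to 2 with no filter and 2 to 6 with 1 left out. Chemokines went from 5 to 1 with the pseudocount 0.1, 0 with no filter, 3 with a mean of at least 5 FPKM, 9 with array weights, 3 with the most abundant transcript, 14 with all 30, 11 with the replicate block and 10 with the block without replicate 5, and 0 to 8 with 1 left out. YAP and SRF genes went from 5 to 3 with no filter, 3 with a mean of at least 5 FPKM, 2 with the most abundant transcript and 9 with all 30, and 2 to 4 with 1 left out. Of 176 named genes that were called, 144 remained called without QpE replicate 5, 162 with the replicate block, 173 joined, 153 with a common total and 81 with no filter. With the replicate block 14 of the 176 were no longer called, with adjusted p from 0.0507 for Cers4 to 0.0819 for Tpi1. Mrps34 reversed with the most abundant transcript alone, to -0.32. No scaling moved the median of all genes by over 0.1. Without fragment counts, the precision of a gene of low FPKM in a library of about 9500000 fragments could not be given.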

Other observations

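Elovl3, a fatty acid elongase of brown and cold-exposed fat, was not tested, since fewer than 5 of the 10 libraries reached 1 FPKM. It read 7.14, 10.4, 0.534, 0.446 and 24.4 FPKM in QpE replicates 1 to 5 and 0.766, 0.526, 0, 0.108 and 0.509 in controls, so that QpE replicates 1, 2 and 5 stood above every control and replicates 3 and 4 did not. Kcnk3, a potassium channel of thermogenic fat, read 33.5, 51.0, 28.8, 25.8 and 124 FPKM with QpE and 24.6, 22.9, 14.4, 11.5 and 29.01 in controls. Its groups overlapped, and it was not called in the main fit. Of the 7 tested thermogenic genes only Ppargc1b was called there, while all 7 had values above 0, with a median of 0.19. Other members of that list averaged 9.39 with QpE and 8.29 FPKM in controls (Cox7a1), 11.8 and 11.1 (Cox8b) and 0.306 and 0.463 (Dio2). Cidea, a lipid droplet protein of brown fat, stayed at or under 1.57 FPKM in every library. Elovl3, Kcnk3, Cidea, Cox7a1, Cox8b and Dio2 are named here after their values were seen.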
